A study of Mus musculus with 42 samples.

Results

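The unfolded protein response genes described here were 10 genes chosen by symbol: Hspa5, Hsp90b1, Atf4, Ddit3, Xbp1, Dnajb9, Herpud1, Calr, Pdia4 and Trib3. All 10 are protein-coding genes with an entry in the table of 44674 genes, and all 10 were among the 21168 genes that passed the filter on low counts. They were followed in main olfactory epithelium, the nasal tissue that houses the olfactory sensory neurons, of adult male C57BL/6NCrl mice aged 8 to 12 weeks. For 1 h the animals had met either no odour or that of a normal chow diet (NCD), a bacon-flavoured diet (BFD, "Bacon" in the sample labels) or a lard-based high-fat diet (HFD). Each pool combined 4 epithelia, with 5 pools without odour, 6 with NCD, 5 with BFD and 5 with HFD odour. Each of the 21 pools gave an input library of the whole tissue and a pulldown library (pS6-ribotrap), for which an antibody that binds the phosphorylated form of ribosomal protein S6 captured ribosomes and their messenger RNA from recently active cells of any type. With pooled whole tissue, fewer cells of a type and less RNA per cell cannot be told apart.

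The unfolded protein response adjusts a cell to the load of proteins folding in its endoplasmic reticulum (ER). The kinase Perk slows translation while favouring that of the transcription factor Atf4, the nuclease Ire1 splices Xbp1 messenger RNA into the form that encodes an active factor, and Atf6 is cleaved to release another. In olfactory sensory neurons, expression of an odorant receptor engages Perk and the Atf4 relative Atf5 during maturation, and gland cells that secrete much protein depend on Xbp1. Gene-level counts do not separate spliced from unspliced Xbp1, and a pulldown count reports messenger RNA on ribosomes, not protein.

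The promoters of the members show which of them carry the letters that these factors are known to bind. RefSeq windows on GRCm38.p6 from 250 bases before to 50 bases after the start site were found for all 10. The ER stress element ERSE (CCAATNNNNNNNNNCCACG, each motif being read on both strands), bound by Atf6 with NF-Y, was in 3 of them, Hspa5, Hsp90b1 and Calr, and in 0.119% of all 32851 windows. ERSE-II (ATTGGNCCACG) was in Herpud1 and in 0.0365% of windows, and the C/EBP-ATF element (TTGCATCA), read by Atf4 and its partners, was in Herpud1 and in 0.895% of windows. The UPRE core (TGACGTGG) and the cyclic AMP response element (TGACGTCA) were in no member, and in 0.676% and 1.79% of windows. The windows of 4 members are given 5′ to 3′ on the strand of the gene, with matches in capitals at the letters that the motif fixes. Hspa5 and Hsp90b1 are 2 of the 3 members that carry ERSE, Herpud1 holds both other motifs, and Ddit3 is a gene that fell in the inputs and has no match here, which says only that these letters are not in this window.
Hspa5, chr2:34771840-34772139, plus strand: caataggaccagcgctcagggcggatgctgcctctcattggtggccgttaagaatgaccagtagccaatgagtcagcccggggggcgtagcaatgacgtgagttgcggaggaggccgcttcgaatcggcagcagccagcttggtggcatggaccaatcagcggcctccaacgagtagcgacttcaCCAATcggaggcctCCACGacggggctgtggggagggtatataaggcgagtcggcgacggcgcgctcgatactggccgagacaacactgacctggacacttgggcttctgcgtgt
Hsp90b1, chr10:86705395-86705694, minus strand: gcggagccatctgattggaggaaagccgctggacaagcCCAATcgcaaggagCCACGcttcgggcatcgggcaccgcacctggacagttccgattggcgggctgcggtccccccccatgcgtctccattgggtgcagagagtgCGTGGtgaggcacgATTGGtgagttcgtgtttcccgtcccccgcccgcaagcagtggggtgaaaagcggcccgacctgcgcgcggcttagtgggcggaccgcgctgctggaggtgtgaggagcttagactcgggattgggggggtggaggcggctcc
Herpud1, chr8:94386179-94386478, plus strand: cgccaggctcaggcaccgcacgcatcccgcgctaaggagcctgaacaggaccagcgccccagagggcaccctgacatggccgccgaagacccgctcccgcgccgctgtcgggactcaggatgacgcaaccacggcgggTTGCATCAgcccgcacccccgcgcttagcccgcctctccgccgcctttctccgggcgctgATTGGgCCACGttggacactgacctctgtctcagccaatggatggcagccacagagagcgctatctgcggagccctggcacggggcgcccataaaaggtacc
Ddit3, chr10:127290543-127290842, plus strand: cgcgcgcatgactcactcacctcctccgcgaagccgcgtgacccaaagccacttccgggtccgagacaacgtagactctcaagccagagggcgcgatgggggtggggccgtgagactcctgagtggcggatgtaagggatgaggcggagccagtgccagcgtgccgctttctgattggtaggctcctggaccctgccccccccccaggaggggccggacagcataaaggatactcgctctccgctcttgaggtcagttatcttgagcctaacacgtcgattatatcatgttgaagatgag
In Hspa5 the ERSE ran from base -65 to -47 relative to the start site. Hsp90b1 held 2 copies, at -212 to -194 on the strand of the gene and at -107 to -89 on the other strand. In Herpud1 the C/EBP-ATF element stood at -112 to -105 and ERSE-II at -52 to -42. No match in a member overlapped another.

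The input libraries held 24839555 to 36781553 counts and the pulldowns 25392812 to 36738330. Ribosomal RNA took 21.7 to 32.2% of the input counts without odour and 9.76 to 21.9% with odour (p = 0.000197, exact permutation test of 5 against 16 pools, two-sided), and 14.6 to 28.5% against 10.7 to 21.7% of the pulldown counts (same test, p = 0.00157). No label names a batch. In the inputs the share hardly overlapped between pools without and with odour, so the share and the odour cannot be told apart there, also with a covariate. The BFD pulldown of replicate 1 stood apart. The 1974 genes low in pulldowns without odour had a median log2 ratio to input of -0.503 in it and of -0.896 to -1.66 in the other 20 pulldowns, so the calls on BFD odour are also given without this pool. Markers of mature olfactory sensory neurons, among them Omp and Adcy3, had a summed level of 14023 to 17652 CPM over the inputs without odour and were present in every library labelled as this tissue. CPM, here and throughout, are counts brought to a common library total with TMM factors.

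Per kilobase of exon, Atf4 had the highest input level of the members without odour, 73.0 ± 6.98 CPM per kilobase (SD, n = 5). Hsp90b1, which encodes the ER chaperone Grp94, followed at 57.6 ± 6.07, and Calr, the lectin chaperone calreticulin, at 34.0 ± 2.82. Hspa5, the chaperone BiP that also holds the stress sensors inactive, stood at 28.5 ± 4.70, Xbp1 at 27.9 ± 2.94 and Dnajb9, an Xbp1 target and BiP co-chaperone, at 27.2 ± 4.85, which did not differ beyond their spread. Herpud1, a component of the degradation machinery of the ER membrane, was at 23.9 ± 1.11 and Ddit3, the factor CHOP, at 22.9 ± 2.03. Pdia4, a disulphide isomerase, was lower at 9.11 ± 1.10 and Trib3, a pseudokinase induced by Atf4 and CHOP, lowest at 3.91 ± 0.413.

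Without odour, the members were unevenly represented on phosphorylated ribosomes. Atf4, Ddit3 and Hspa5 were higher in the pulldown than in the input of the same pools, and Dnajb9, Xbp1 and Herpud1 were lower. These 6 of 10 passed the threshold (adjusted p under 0.001 over all genes tested, edgeR's quasi-likelihood test), where 35.8% of all genes did. The log2 difference was 0.64 ± 0.10 (SE) for Atf4 (adjusted p = 4.9e-06), with 267 ± 22.6 CPM in the pulldowns and 172 ± 16.5 in the inputs (SD, n = 5 each). It was 0.55 ± 0.08 for Ddit3 (adjusted p = 2.7e-06) and 0.28 ± 0.06 for Hspa5 (adjusted p = 0.00046). The Hspa5 difference missed the threshold with any of replicates 1 to 4 without odour left out, with an adjusted p of up to 0.0073, and kept its sign. Scaled by the deposited library totals in place of TMM, Hsp90b1 passed as well.
Dnajb9 had the largest deficit, -0.88 ± 0.07 (adjusted p = 7.4e-11), followed by Xbp1 at -0.74 ± 0.06 (adjusted p = 3.6e-10) and Herpud1 at -0.36 ± 0.06 (adjusted p = 7.0e-06). The pulldown stood on the same side of the input in all 5 pools for each of these 6 genes, but also for Hsp90b1, Calr and Trib3. The share of all genes with this trait was not counted. Trib3 at 0.30 ± 0.11 (adjusted p = 0.022), Hsp90b1 at 0.21 ± 0.06 (adjusted p = 0.0031), Calr at -0.15 ± 0.05 (adjusted p = 0.013) and Pdia4 at 0.02 ± 0.08 (adjusted p = 0.87) did not pass.

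**Figure D1:**
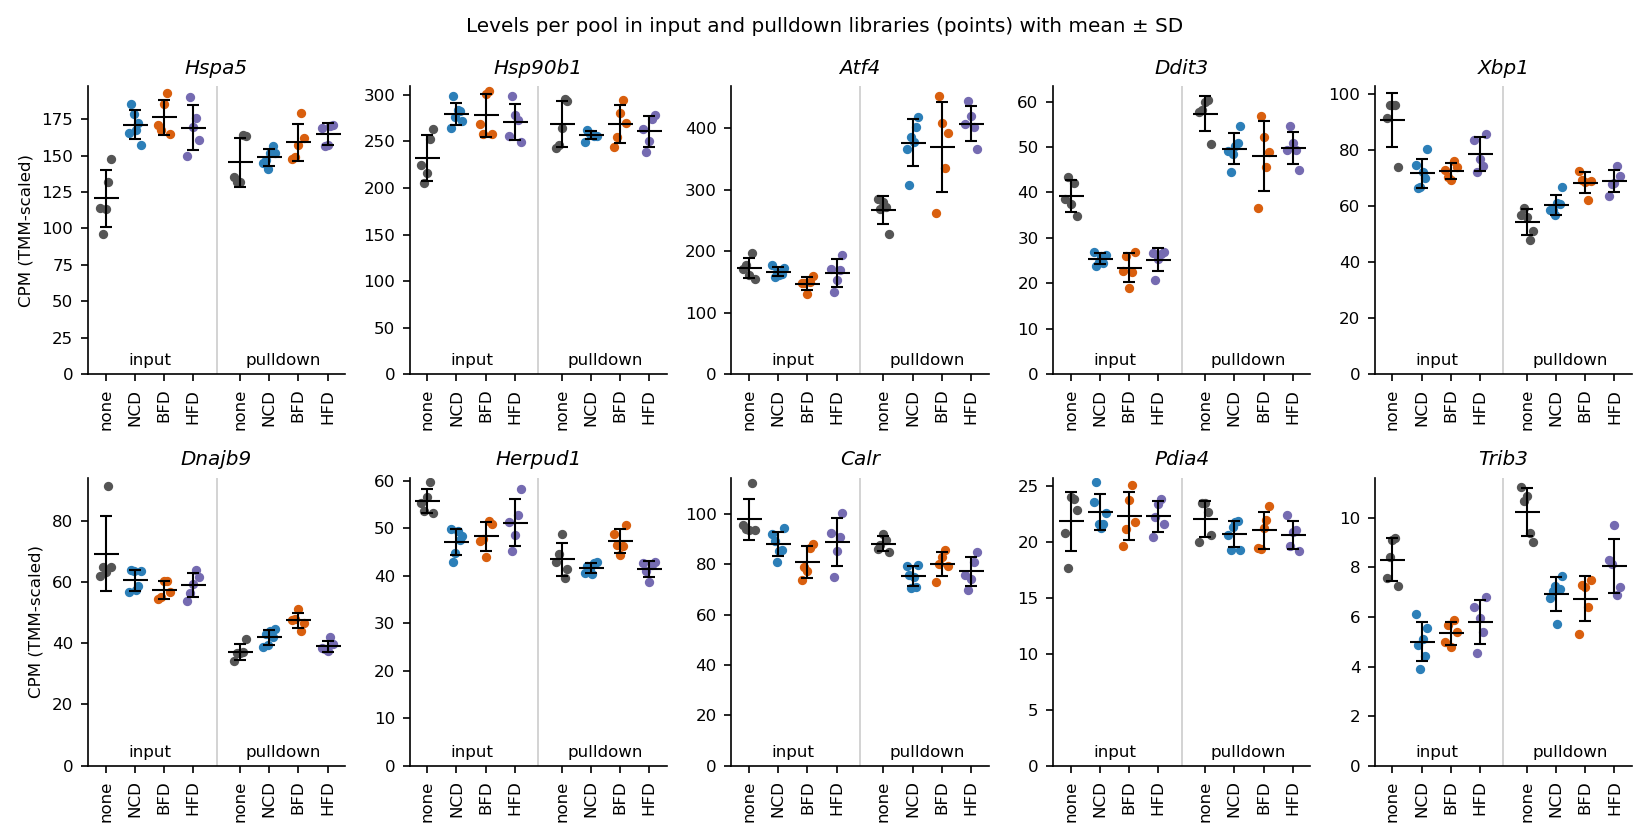
Levels of the 10 members in CPM (TMM-scaled, y axes from 0) in the input (left of each panel) and pulldown (right) library of each pool, by odour. Points are pools, with 5 without odour, 6 with NCD, 5 with BFD and 5 with HFD odour, and bars are mean ± SD. Hspa5 input values lie higher and Ddit3 and Trib3 input values lower in every odour group than without odour.

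In the whole tissue, 1 h of any food odour went with more Hspa5 and less Ddit3. Of the 10 members, 3 passed the threshold in the inputs with NCD odour, where 0.968% of all genes did, 4 with BFD odour, where 13.1% did, and 2 with HFD odour, where 0.935% did. At an adjusted p under 0.05 they were 6, 9 and 6, against 22.5%, 38.5% and 20.7% of all genes. The 3 comparisons share the pools without odour, so that their likeness is no independent repeat. In the inputs Hspa5 (chromosome 2, 34771970 to 34777547) had 114, 95.9, 114, 132 and 148 CPM in the pools without odour. With NCD odour it had 157 to 185 CPM with a median of 170.1, with BFD odour 171, 168, 185, 193 and 165 CPM, and with HFD odour 149.9, 189.9, 169.8, 176 and 161 CPM.
Every pool with odour was above every pool without it, the nearest being 149.9 CPM with HFD odour and 148 CPM without odour. The share of all genes whose groups separate was not counted, here or where separation is given below. The log2 change was 0.50 ± 0.08 with NCD (SE, adjusted p = 0.00051), 0.55 ± 0.09 with BFD (adjusted p = 6.8e-05) and 0.49 ± 0.09 with HFD odour (adjusted p = 0.00087), a rise of 1.42-fold, 1.46-fold and 1.40-fold. With 1 pool left out, the BFD call held in 21 of 21 cases, but the NCD call was lost in 7 (replicates 1 to 3 without odour, NCD replicates 2 to 5), with an adjusted p of up to 0.0024, and the HFD call in 17 (all but replicates 4 and 6 without odour and HFD replicates 1 and 6), with an adjusted p of up to 0.0039, while the change stayed at 0.41 or above. The BFD change of Hspa5 was also 0.55 ± 0.09 without BFD replicate 1 (adjusted p = 0.00023). Hsp90b1, which also carries ERSE, did not pass, at 0.27 ± 0.07 with NCD (adjusted p = 0.0094), 0.26 ± 0.07 with BFD (adjusted p = 0.0063) and 0.22 ± 0.07 with HFD odour (adjusted p = 0.032). Scaled by library totals, which moves the median of all genes by 0.21, 0.33 and 0.21 with NCD, BFD and HFD odour, Hsp90b1 passed with all 3 (0.49, 0.57 and 0.45), and Hspa5 stood at 0.72, 0.86 and 0.71.
Neither remaining chaperone passed. Calr, which also carries ERSE, stood at -0.15 ± 0.07, -0.28 ± 0.07 and -0.14 ± 0.07 with adjusted p of 0.12, 0.0043 and 0.18. Pdia4 stood at 0.05 ± 0.08, 0.03 ± 0.08 and 0.03 ± 0.08, with input values of 17.7 to 24.0 CPM without odour and 19.7 to 25.4 CPM with it.

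Ddit3 (chromosome 10, 127290774 to 127296288) moved the other way. In the inputs it had 38.5, 43.4, 37.4, 42.1 and 34.9 CPM without odour. It had 23.8 to 27.0 CPM with a median of 25.4 with NCD odour, 22.6, 26.03, 18.9, 22.5 and 27.0 CPM with BFD odour, and 26.6, 20.7, 25.4, 26.3 and 26.9 CPM with HFD odour. The groups did not overlap. Ddit3 fell by 0.63 ± 0.08 on the log2 scale with NCD (adjusted p = 3.2e-05), by 0.74 ± 0.09 with BFD (adjusted p = 3.5e-06) and by 0.64 ± 0.09 with HFD odour (adjusted p = 5.95e-05), to 0.647, 0.597 and 0.642 of its level without odour. All 3 calls held with any 1 pool left out, without BFD replicate 1 at -0.74 ± 0.10 (adjusted p = 3.4e-05). By library totals they held at -0.40, -0.42 and -0.41.
Trib3 (chromosome 2, 152337422 to 152344032), a target of CHOP, had 7.59, 8.44, 9.10, 9.21 and 7.26 CPM in the inputs without odour. It had 3.91 to 6.10 CPM with a median of 5.00 with NCD odour, 4.99, 5.67, 4.79, 5.89 and 5.40 CPM with BFD odour, and 6.42, 4.53, 5.95, 5.38 and 6.79 CPM with HFD odour. Each of these pools was below each pool without odour. Trib3 fell by 0.73 ± 0.11 with NCD (adjusted p = 0.00024) and by 0.64 ± 0.12 with BFD odour (adjusted p = 0.0002), and its change with HFD odour, -0.52 ± 0.12, did not pass (adjusted p = 0.0041). DESeq2 with the same design called that HFD change (adjusted p = 0.00041). The NCD call was lost without replicate 3 without odour (adjusted p = 0.0012) or NCD replicate 5 (adjusted p = 0.0011), and the BFD call without BFD replicate 3 (adjusted p = 0.00103), while without BFD replicate 1 it held (adjusted p = 0.00092). By library totals the BFD change of Trib3 was -0.32 ± 0.10 and missed the threshold (adjusted p = 0.012), and the NCD change was -0.50 ± 0.10 (adjusted p = 0.00051).
Atf4 itself, which lies upstream of both, did not pass with any odour in the inputs, with -0.05 ± 0.08, -0.23 ± 0.08 and -0.07 ± 0.08 for NCD, BFD and HFD odour (adjusted p = 0.71, 0.028 and 0.61). By library totals these values lay above 0, at 0.18, 0.10 and 0.16, and did not pass either. Xbp1 (chromosome 11, 5520659 to 5525893) passed in edgeR only with BFD odour, where it fell by 0.32 ± 0.07 (adjusted p = 0.00097). Scaled by deposited library totals in place of TMM, which moves the median of all genes by 0.33 with BFD odour, that change was -0.000836. The call was also lost with any 1 of 16 of the 21 pools left out, with an adjusted p of up to 0.0037, and held without replicate 6 without odour, NCD replicate 6 or HFD replicates 1, 2 or 6. Without BFD replicate 1, 3 members passed in place of 4. The Xbp1 change was -0.34 ± 0.07 with NCD (adjusted p = 0.002) and -0.21 ± 0.07 with HFD odour (adjusted p = 0.04). DESeq2 with the same design called the NCD change of Xbp1 as well (adjusted p = 9.1e-05). Dnajb9 and Herpud1 stayed between -0.27 and -0.12 with adjusted p from 0.00895 to 0.19.

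The share of ribosomal RNA moved with these input levels. Over the 16 inputs with odour, the log2 level of Hspa5 fell with that share (Pearson's r = -0.728, permutation p = 0.00128, Spearman's rho = -0.785, permutation p = 0.00054), as in the plot of level against share. Those of Atf4 (r = 0.914, rho = 0.935, both permutation p = 2e-05, the smallest these permutations can give) and Ddit3 (r = 0.696, permutation p = 0.00022, rho = 0.782, permutation p = 0.00054) rose with it. Adjusted over 20 relations, 10 members in both kinds of library, p was 0.0064, 0.0002 and 0.00147. Without the 2 pools farthest from the median share, r was -0.680, 0.885 and 0.723. These relations pool the odour groups, and the permutations ignored the group, so differences between odours are part of them. An adjusted p under 0.05 was reached by 8 of the 10 members in the inputs and by 1, Calr, in the pulldowns. How many of all genes have such a relation was not counted, so this is not a trait shown to be particular to the members.
The share hardly overlapped between inputs without and with odour, so a fit with it as a covariate cannot separate it from the odour. With the share as a covariate no member passed in the inputs. Ddit3 was then at -0.26 ± 0.11, -0.26 ± 0.14 and -0.27 ± 0.12 and Hspa5 at 0.16 ± 0.11, 0.09 ± 0.14 and 0.14 ± 0.11 for NCD, BFD and HFD odour. Over all genes tested, 8, 5 and 4 genes passed with this covariate, in place of 205, 2767 and 198. A pair of pools, chosen after their values were seen, had nearly the same share, replicate 6 without odour at 21.7% and replicate 6 with HFD odour at 21.9%. Ddit3 had 34.9 CPM in the input of the first and 26.9 in that of the second, Hspa5 148 and 161, Trib3 7.26 and 6.79, and Atf4 155 and 194. With 1 pool on each side, this pair cannot separate the share from the odour.

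**Figure D2:**
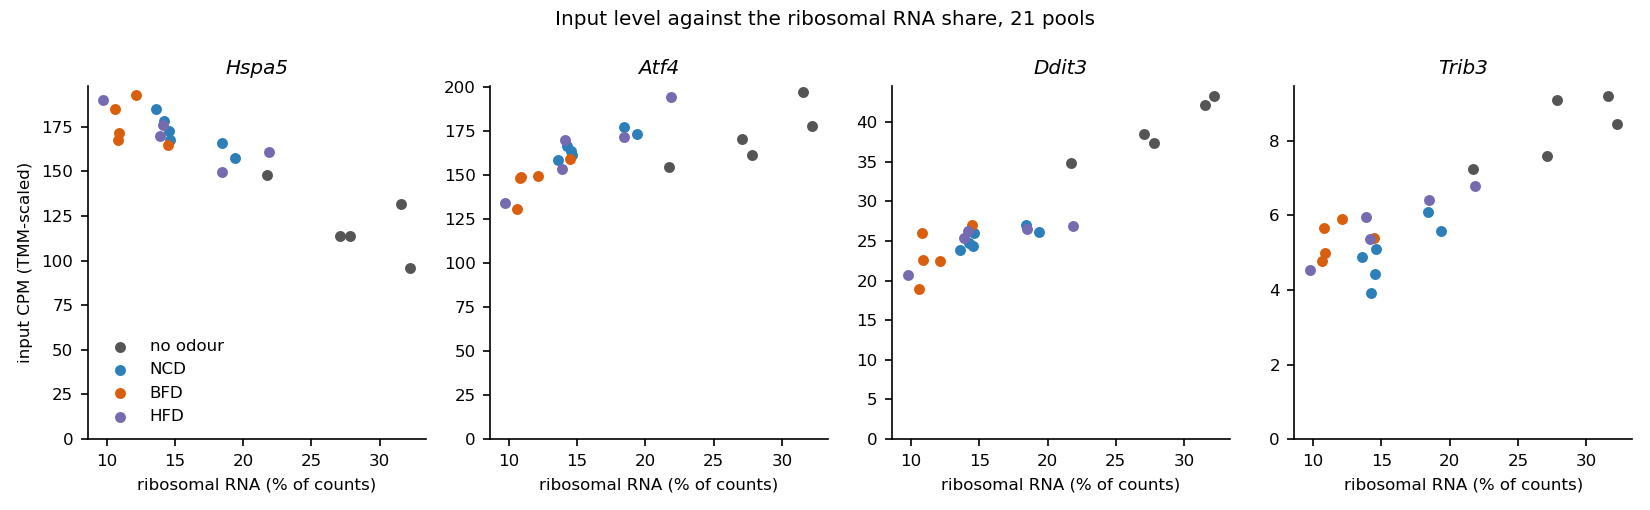
Input level in CPM (TMM-scaled, y axes from 0) of Hspa5, Atf4, Ddit3 and Trib3 against the percentage of input counts on ribosomal RNA, 1 point per pool, 21 pools coloured by odour. The pools without odour lie at 21.7 to 32.2% and those with odour at 9.76 to 21.9%, and Ddit3 and Trib3 are highest in the pools without odour.

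On phosphorylated ribosomes relative to the input, Xbp1 rose with every odour. In this ratio 1 of 10 members passed with NCD odour, where 0.524% of all genes did, 2 with BFD odour, where 3.78% did, and 1 with HFD odour, where 1.22% did. At an adjusted p under 0.05 they were 6, 7 and 6, against 13.1%, 22.5% and 15.7% of all genes. Without odour the log2 ratio of Xbp1 was -0.68, -0.69, -0.77, -1.004 and -0.53. With odour it was -0.35 to -0.18 with a median of -0.24 for NCD, -0.01, -0.02, -0.01, -0.29 and -0.10 for BFD, and -0.40, -0.09, -0.17, 0.00 and -0.28 for HFD.
No pool with odour overlapped those without, though how many of all genes separate like this was not counted. Xbp1 was less depleted in the pulldown with odour than without. It stayed below the input in every NCD and BFD pool. The log2 ratio rose by 0.49 ± 0.08 with NCD (adjusted p = 0.00083), by 0.65 ± 0.09 with BFD (adjusted p = 4e-05) and by 0.55 ± 0.09 with HFD odour (adjusted p = 0.00027). The mean levels behind it lay in opposite directions. The Xbp1 pulldown level was 54.3 ± 4.67 CPM without odour (SD, n = 5), 60.4 ± 3.53 with NCD (n = 6), 68.3 ± 3.67 with BFD and 68.9 ± 4.02 with HFD odour (n = 5 each), while the inputs went from 90.6 ± 9.54 CPM to 71.7 ± 5.15, 72.4 ± 2.71 and 78.4 ± 5.99.
With 1 pool left out, the BFD call of Xbp1 held in 21 of 21 cases, and without BFD replicate 1 its change was 0.63 ± 0.09 (adjusted p = 2.2e-05). The NCD call was lost in 14, all of replicates 1 to 4 without odour and all 6 NCD pools, BFD replicates 2, 3 and 5 and HFD replicate 3, with a change of 0.43 to 0.54 and an adjusted p of up to 0.0038. The HFD call was lost in 4, without replicate 3 without odour or without HFD replicates 2, 3 or 5, with an adjusted p of up to 0.0015. With the share of ribosomal RNA as covariate the changes were 0.43, 0.51 and 0.51, with adjusted p of 0.0032, 0.0076 and 0.00041. In this fit each pool has its own term, so the covariate takes up only share differences between the pulldown and input of a pool. It cannot separate the level of the share, which differed between pools without and with odour, from the odour. By library totals the changes were 0.35, 0.42 and 0.43, and only the BFD change passed (adjusted p = 0.0059, 0.00065 and 0.0016).

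Dnajb9 (chromosome 12, 44205559 to 44210326), a known target of Xbp1, also rose in this ratio with BFD odour. Whether Xbp1 had a part in that was not tested. Its log2 ratio was -0.86, -0.82, -0.78, -1.30 and -0.65 without odour and -0.20, -0.20, -0.24, -0.46 and -0.28 with BFD odour, with no overlap. The rise was 0.61 ± 0.10 (adjusted p = 0.00013), and 0.59 ± 0.10 without BFD replicate 1 (adjusted p = 0.00011). It was 0.35 ± 0.09 with NCD (adjusted p = 0.013) and 0.29 ± 0.10 with HFD odour (adjusted p = 0.04), which did not pass. In the BFD pulldowns Dnajb9 had 44.0 to 51.1 CPM, above the 34.1 to 41.5 CPM of those without odour, and in HFD pulldowns 37.4 to 41.9 CPM. With the share of ribosomal RNA as covariate, under the limit given for Xbp1, the BFD rise was 0.53 ± 0.12 and missed the threshold (adjusted p = 0.014). By library totals it was 0.38 ± 0.09 and missed it too (adjusted p = 0.0032). Herpud1 did not pass, with a change of 0.33 ± 0.08 with BFD odour (adjusted p = 0.0044) and of 0.18 ± 0.08 and 0.06 ± 0.08 with NCD and HFD odour. DESeq2 with the same design called the BFD change of Herpud1 (adjusted p = 0.00069).

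Some markers of glands rose in the same contrast as Xbp1. Of 5 gland markers, 2 passed with each odour, the secreted proteins Bpifb9b, with a log2 change of ratio of 1.87, 1.85 and 1.93 for NCD, BFD and HFD odour, and Obp1a, with 3.02, 2.62 and 3.04. At an adjusted p under 0.05, 1, 2 and 1 of the others, Sox9, Aqp5 and Muc5b, were lower. The 5 together had 6277 to 8420 CPM in the pulldowns without odour and 12640 to 14245, 14672 to 22443 and 16666 to 19220 CPM with NCD, BFD and HFD odour, against 6974 to 13897, 8125 to 8701, 12354 to 14831 and 10347 to 11349 CPM in the inputs. These sums include Bpifb9b and Obp1a and do not speak for Sox9, Aqp5 and Muc5b. None of the 5 was at 0. Their part in the Xbp1 result was not tested. Plasma and B cells also use Xbp1, and 0 of 15 tests of their 5 markers over the 3 odours passed (4 with an unadjusted p under 0.05, and 0 by DESeq2), with a summed pulldown level of 28.8 to 41.9 CPM without odour and 24.9 to 54.5 CPM with it, Mzb1 at or under 0.811 CPM in every library and Cd79a at 0 in a BFD pulldown.
The 7 markers of mature olfactory sensory neurons summed to 14826 to 18534 CPM in the pulldowns without odour and 16882 to 23174 CPM with it, and 1 of them, Omp, passed, with BFD odour. The 4 macrophage markers summed to 64.1 to 86.0 CPM in pulldowns without odour and 31 to 53.3 CPM with it, and 0 of 12 tests passed (8 with an unadjusted p under 0.05, and 1 passed by DESeq2). Their part in the results of the members was not tested either.

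**Figure D3:**
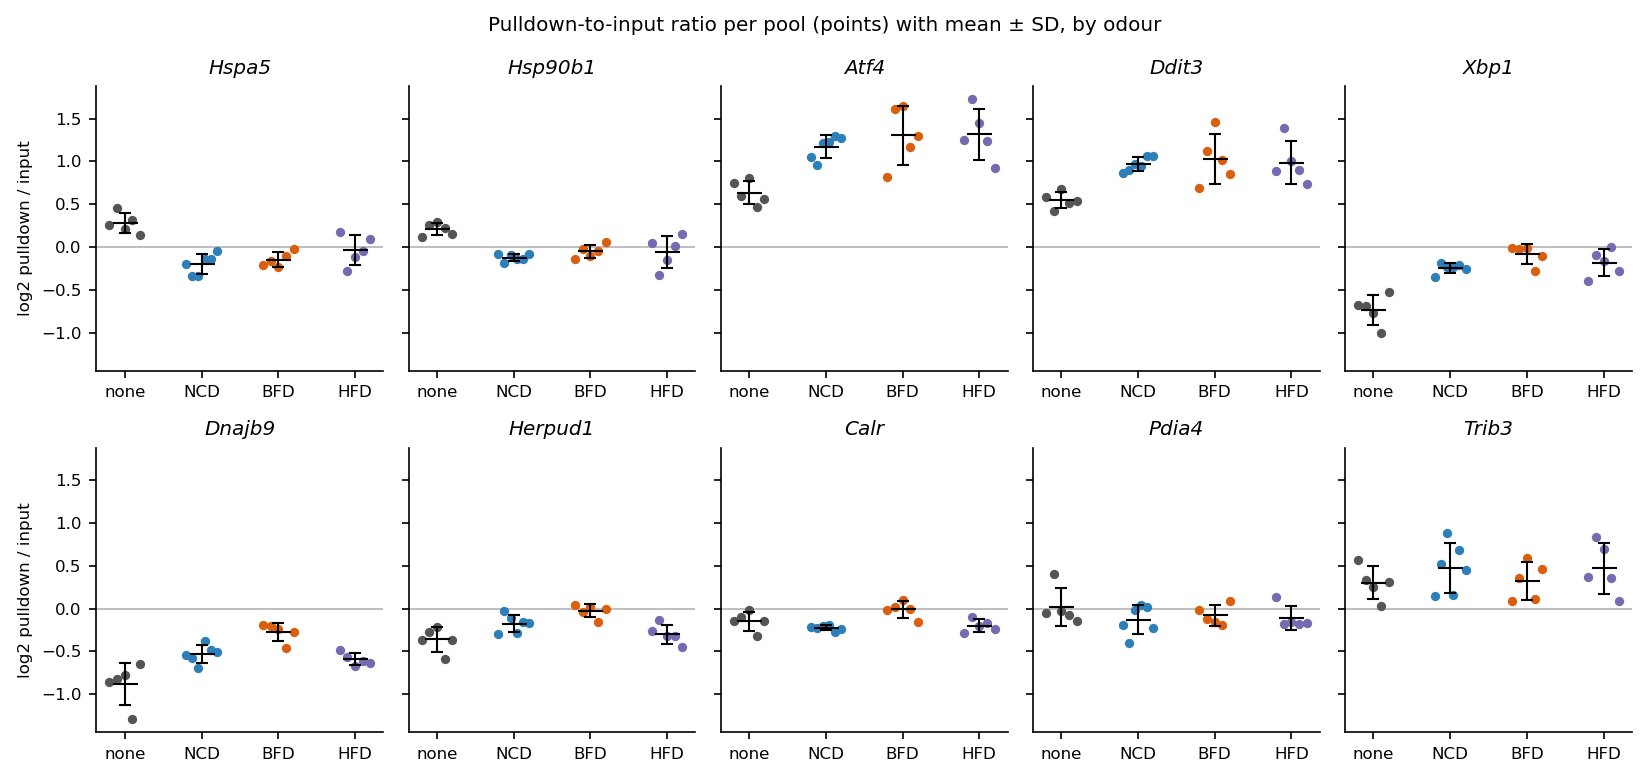
Log2 pulldown-to-input ratio of each member in each pool, by odour, where 0 means equal CPM in the pulldown and the input. Points are pools, with 5 without odour, 6 with NCD, 5 with BFD and 5 with HFD odour, and bars are mean ± SD. Xbp1 lies at -1.004 to -0.53 without odour and at -0.40 to 0.00 with odour, and the Hspa5 ratio lies above 0 without odour.

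Atf4 and Ddit3, the Perk branch, stood further above the input with odour, without passing the threshold in edgeR with all pools. DESeq2 with the same design called the ratio change of Atf4 with BFD and HFD odour (adjusted p = 3.2e-05 and 5.9e-05). It also called that of Ddit3 with BFD odour (adjusted p = 0.00089). The pulldown level of Atf4 (chromosome 15, 80255184 to 80257541) was 286, 269, 281, 273 and 229 CPM without odour. With odour it was 308 to 419 CPM with a median of 383 for NCD, 262, 453, 408, 335 and 392 CPM for BFD, and 407, 444, 419.9, 402 and 367 CPM for HFD. Only the BFD pool of replicate 1, whose pulldown stood apart, overlapped the pools without odour.
The difference in the log2 ratio of Atf4 from no odour was 0.54 ± 0.13 with NCD (adjusted p = 0.0105), 0.67 ± 0.14 with BFD (adjusted p = 0.0013) and 0.68 ± 0.14 with HFD odour (adjusted p = 0.0021). Without BFD replicate 1, the BFD changes of Atf4, 0.80 ± 0.13 (adjusted p = 5.5e-05), and Ddit3, 0.56 ± 0.11 (adjusted p = 0.00057), passed, and 4 members passed in place of 2. In all pools the difference for Ddit3 was 0.42 ± 0.11, 0.48 ± 0.12 and 0.44 ± 0.12 (adjusted p = 0.015, 0.0041 and 0.013). The pulldown level of Ddit3 was 57.4 ± 3.95 CPM without odour (SD, n = 5) and 49.6 ± 3.33 with NCD (n = 6), 48.0 ± 7.63 with BFD and 49.8 ± 3.49 with HFD odour (n = 5 each).
Trib3 had 9.04 to 11.3 CPM in the pulldowns without odour and 5.30 to 9.71 CPM with odour. The difference in its log2 ratio was 0.17 ± 0.15, 0.02 ± 0.16 and 0.17 ± 0.16 (adjusted p = 0.51, 0.95 and 0.51).

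The chaperones Hspa5 and Hsp90b1 had lower mean ratios with odour than without, and no difference passed the threshold in edgeR with TMM. The log2 ratio of Hspa5 was 0.25, 0.46, 0.22, 0.32 and 0.15 without odour. It was -0.34 to -0.05 with a median of -0.17 with NCD odour, -0.21, -0.17, -0.24, -0.10 and -0.02 with BFD odour, and 0.17, -0.28, -0.11, -0.05 and 0.09 with HFD odour. The first pair of groups did not overlap the pools without odour, and HFD replicate 1 did. The changes of -0.48 ± 0.08 with NCD (adjusted p = 0.0011), -0.43 ± 0.09 with BFD (adjusted p = 0.0012) and -0.31 ± 0.09 with HFD odour (adjusted p = 0.017) did not pass. By library totals, under which the median of all genes moves by -0.15, -0.23 and -0.13, the Hspa5 differences with NCD, -0.62 ± 0.10 (adjusted p = 0.00025), and BFD, -0.65 ± 0.10 (adjusted p = 7.2e-05), passed, and so did that of Hsp90b1 with BFD, -0.49 ± 0.10 (adjusted p = 0.00047). DESeq2 with the same design called Hspa5 with NCD and BFD odour and Hsp90b1 with NCD odour. With BFD replicate 1 left out, Hspa5 was at -0.41 ± 0.09 and Hsp90b1 at -0.24 ± 0.09 with BFD odour (adjusted p = 0.0016 and 0.04), and the Hspa5 difference with NCD odour, -0.48 ± 0.08, passed (adjusted p = 0.00051). The pulldown level of Hspa5 was 145 ± 16.99 CPM without odour (SD, n = 5) and 149 ± 5.73 (n = 6), 159 ± 12.7 and 165 ± 7.44 CPM (n = 5 each) with NCD, BFD and HFD odour. For Hsp90b1 the differences were -0.33 ± 0.08, -0.26 ± 0.08 and -0.26 ± 0.08 (adjusted p = 0.0079, 0.024 and 0.029), and for Calr and Pdia4 they were -0.15 to 0.14.

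**Figure D4:**
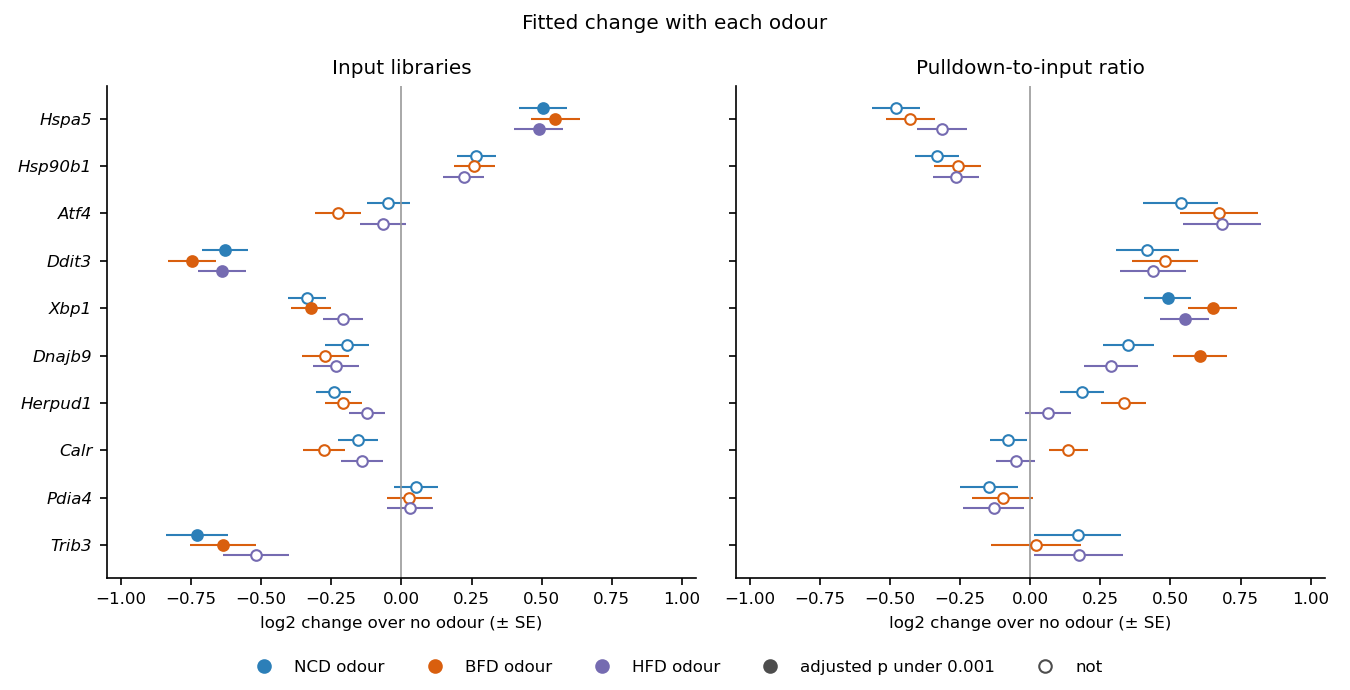
Fitted log2 change of each member with NCD, BFD or HFD odour over no odour (x axes, bars ± SE) in the input libraries (left) and in the pulldown-to-input ratio (right). Filled circles have an adjusted p under 0.001. Hspa5 is filled at 0.49 to 0.55 and Ddit3 at -0.74 to -0.63 in the inputs, and Xbp1 is filled at 0.49 to 0.65 in the ratio.

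The 3 food odours were also set against each other. In the ratio 0 of 10 members passed for HFD over BFD, HFD over NCD or BFD over NCD odour, where 0.0378%, 0.0236% and 0.00945% of all genes did. In the inputs 0 of 10 passed, where 0.0803%, 0.0567% and 0.104% of all genes did. DESeq2 with the same designs called 0 of the 10 in these 6 comparisons, and edgeR's unadjusted p was under 0.05 in 6 of the 60 tests. The share of all genes with such a p was not counted. Approximate 95% intervals of the differences lay between -0.50 and 0.47 on the log2 scale, which leaves room for differences up to about that size. They were built from the SE with the normal distribution and are somewhat narrower than the quasi-likelihood test implies. The difference with the smallest unadjusted p was in Dnajb9, whose ratio was lower by 0.32 ± 0.09 with HFD than with BFD odour (interval -0.50 to -0.13, adjusted p = 0.32). Herpud1 and Calr were next in that contrast, at -0.27 ± 0.08 (interval -0.43 to -0.11) and -0.19 ± 0.07 (interval -0.33 to -0.05). For Xbp1 the interval was -0.27 to 0.07, and for Hspa5 in the inputs -0.23 to 0.11. The remaining tests with an unadjusted p under 0.05 were of BFD over NCD odour. They were Calr at 0.21 ± 0.07 and Dnajb9 at 0.26 ± 0.09 in the ratio, and Atf4 at -0.18 ± 0.08 in the inputs (adjusted p = 0.51, 0.61 and 0.18).

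Other genes of the pathway were read from 5 lists with 112 genes, 111 of them tested. The lists were chosen with earlier results of these data known, so their counts and medians are no independent support. In the ratio 1 gene rose with NCD odour, 8 rose and 1 fell with BFD odour, and 6 rose and 1 fell with HFD odour, where 0.524%, 3.78% and 1.22% of all genes passed. With BFD odour 16 rose and 1 fell when BFD replicate 1 was left out. The list of the Ire1 and Xbp1 arm, which holds 24 genes and includes subunits of the signal peptidase and of the translocon, had 10 genes that were higher and 1 that was lower at an adjusted p under 0.05 with NCD, 14 and 1 with BFD and 14 and 1 with HFD odour. Its median change of the log2 ratio was 0.23, 0.32 and 0.35, beside -0.00455, 3.75e-05 and -0.0114 over all genes tested. At that threshold 6.79%, 12% and 7.67% of all genes were higher and 6.31%, 10.5% and 8.03% were lower, which is also the background of the list counts that follow.
Spcs2, a subunit of the signal peptidase, rose by 0.81 ± 0.10 with BFD (adjusted p = 6.4e-06) and 0.65 ± 0.10 with HFD odour (adjusted p = 9.9e-05). Nupr1, a stress-induced nuclear protein in the list of the Perk arm, rose with each odour, by 0.84 ± 0.12, 0.94 ± 0.13 and 1.04 ± 0.13 (adjusted p = 0.00015, 4.7e-05 and 1.2e-05). Derl3, which takes part in ER-associated degradation, rose by 1.22 ± 0.18 with HFD odour (adjusted p = 0.00012), and Selenof, a selenoprotein of the ER, by 0.98 ± 0.12 with BFD odour (adjusted p = 1.7e-05). The BFD changes of Spcs2, Nupr1 and Selenof were 0.83, 0.95 and 1.10 without BFD replicate 1, and all 3 passed.
Among the 29 genes of the Perk list 4, 6 and 6 were higher and 0, 0 and 1 lower at an adjusted p under 0.05, with medians of 0.07, 0.16 and 0.06. The 29 chaperones and folding enzymes had 2, 9 and 5 higher and 0 lower, with medians of 0.05, 0.11 and 0.12. The 21 genes of ER-associated degradation had 5, 8 and 6 higher and 0, 1 and 0 lower. The 8 tested genes of the Atf6 list had 0 higher and 2, 1 and 2 lower.

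In the inputs 0 of these 111 genes passed with NCD odour, 7 rose and 15 fell with BFD odour, and 1, Manf, fell with HFD odour, by 0.51 ± 0.09 (adjusted p = 0.00055), where 0.968%, 13.1% and 0.935% of all genes passed. Without BFD replicate 1, 2 rose and 8 fell with BFD odour. For the NCD count of 0, DESeq2 called 8 of the 111, and edgeR's unadjusted p was under 0.05 for 45. Manf is a secreted protein induced by ER stress. With BFD odour Edem3, which trims misfolded glycoproteins, rose by 0.67 ± 0.09 (adjusted p = 1.9e-05), and Stub1, a ubiquitin ligase, and Selenof fell by 0.62 ± 0.08 and 0.73 ± 0.10 (adjusted p = 1.9e-05 and 2.5e-05), and these 3 also passed without BFD replicate 1. Without odour, 19 of the 111 were higher and 32 lower in the pulldown than in the input, where 35.8% of all genes passed. The smallest p there were those of Ssr3, a translocon-associated protein, at -0.94 ± 0.07, Psat1, an enzyme of serine synthesis, at -0.73 ± 0.06, and Spcs3 at -0.64 ± 0.05 (adjusted p = 1.6e-11, 9.2e-11 and 3.6e-10).

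The sensors and Atf5 were read whatever their p. Atf5, at 1026 ± 104 CPM in the inputs without odour (SD, n = 5), stood far above Atf4 in the same libraries also per kilobase, with 515 ± 52.0 against 73.0 ± 6.98 CPM per kilobase. It was higher in the pulldown than in the input without odour, by 1.45 ± 0.13 (SE, adjusted p = 4.4e-09), and passed in no comparison of odours with no odour. Eif2ak3, which encodes Perk, was higher in the pulldown by 0.75 ± 0.09 (adjusted p = 1.7e-07). Atf6 and Ern1, which encodes Ire1, rose in the inputs with BFD odour, by 0.34 ± 0.07 (adjusted p = 0.00098) and 0.44 ± 0.10 (adjusted p = 0.00095), and neither passed without BFD replicate 1 (adjusted p = 0.0025 and 0.0031). With NCD and HFD odour they stood at 0.25 to 0.28 with adjusted p from 0.0156 to 0.0415.

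The genes whose input level was most like that of Hspa5 over the 21 inputs, by Pearson's r of log2 CPM, were Kcnmb3 (r = 0.954), Lrrn1 (0.954), Slc14a2 (0.945), Gpr155 (0.943) and Lrrc3b (0.939), none of them in the pathway lists. For Ddit3 they were H1f0 (r = 0.958), Cox7a2l (0.950), Mmp13 (0.947), Smim22 (0.943) and Cirbp (0.943). These points share libraries and the ribosomal RNA share. Within the odour groups, as deviations from the group means, the r was 0.792 to 0.888 for the genes like Hspa5 and 0.748 to 0.915 for those like Ddit3.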

How the data were processed

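The authors sequenced pulldown and input RNA of 21 pools (Ovation RNA-Seq V2 and Nextera XT libraries, Illumina sequencing), processed the reads with nf-core rnaseq and Salmon on GRCm38, and deposited 1 table of estimated (expected) counts per gene with no normalization. In the paper's methods each pulldown was divided by the input of its pool before DESeq2. The annotation release is not given in the sources used here. Gene symbols came from GENCODE M21, which named all but 556 of the 44674 genes. The unnamed genes held 0.525% of the counts.

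Of the deposited estimated counts, 30.9% were not whole, and all were rounded. Genes were kept by filterByExpr (minimum count 10), which left 21168. Scaling was by TMM, and edgeR 4.0.16 (R 4.3.3, limma 3.58.1) fitted robust quasi-likelihood models with p adjusted over the tested genes by the Benjamini-Hochberg method and a threshold of 0.001. The ratio model held all 42 libraries with a term for each pool and a pulldown term for each odour group, so that a change of the pulldown-to-input ratio is an interaction. The input model held the 21 inputs with the odour only. The biological coefficient of variation was 12.0% and 11.7%. The CPM printed are TMM-scaled, and log2 CPM used a prior count of 2. Both models were tested on simulated data, as were the replicate block and the lack of a pool term in the ratio, and DESeq2 in both forms. The ribosomal RNA covariate, the other scalings and the remaining alternatives were not.

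The labels number the replicates. A pulldown and an input of the same number and odour were taken to come from the same pool, by the labels and the methods. Their deviations from the group means correlated with a median of 0.0633 over 21 pools, from -0.141 to 0.382. For different pools of a group the median was -0.0124, from -0.388 to 0.374, so these values hardly show the pairing. Libraries of the same number in other odour groups correlated with a median of 0.0253, from -0.757 to 0.592, beside 0.000395 for libraries of other numbers. The number was taken to pair no pools across odours, which these values do not settle. The pools are of separate animals by the methods, and no 2 libraries of a group agreed within sampling noise, since the chi-square divided by its degrees of freedom was 3.26 or more.

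Alternatives were DESeq2 1.42.0 with the same designs and on the divided values, DESeq2 size factors, library totals with and without ribosomal RNA, no filter beyond 1 count, the ribosomal RNA share (157 genes) as a covariate, the replicate number as a block, no pool term, only the groups compared, a threshold of 0.05, and each pool left out. The 10 members were named throughout, with up to 3 other pathway genes of smallest p among those called in each comparison, the sensors with Atf5, and the 5 genes most like Hspa5 and Ddit3. The members and lists were chosen with earlier results of these data known. Depth limits precision through counting error, which pools of 24839555 to 36781553 counts keep small for genes at these levels. Of the 31-base words in their exons, Hsp90b1 shared 12.3% with another gene, Dnajb9 10.8%, Ddit3 6.78%, Calr 1.93% and Hspa5 0.0467%, and the counts of the first 3 are less certain for that.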

Additional observations from a re-analysis of the deposited data

Results flagged for a closer look

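Among the 10 members, 120 sets of 5 or 6 pools (input level, pulldown level and log2 ratio in each odour group) were searched for a pool far from the others of its group by Dixon's criterion, which chance meets in about 1 of 20. It was met in 7. In the inputs, Ddit3 was at 20.7 CPM in HFD replicate 2, below 25.4 to 26.9 in the other HFD pools, and Xbp1 was at 73.9 CPM in replicate 6 without odour, below 91.4 to 96.0. Dnajb9 was at 91.4 CPM and Calr at 112 CPM in replicate 4 without odour, above 62.1 to 65.1 and 93.7 to 95.9. In the pulldowns, Ddit3 was at 50.6 CPM in replicate 6 without odour, below 57.6 to 60.4. The log2 ratio of Pdia4 was 0.41 in replicate 2 without odour, above -0.15 to -0.03, and 0.13 in HFD replicate 1, above -0.18 to -0.16.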

How the results depend on the processing

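Of the member values under 11 alternatives and 21 left-out pools, 3848 kept their side of the threshold, 106 lost the call, 74 gained one and 2 called values changed sign, both in the inputs with BFD odour and the ribosomal RNA share as a covariate, where Xbp1 was at 0.16 and Trib3 at 0.041. Another 135 values that passed neither as reported nor under the alternative changed sign, 31 with the covariate, 28 by library totals, 61 with 1 pool left out and the rest elsewhere, among them Atf4 and Calr in the inputs, at 0.36, 0.32 and 0.34 and at 0.16, 0.14 and 0.17 with the covariate. The cause was not tested. For the ratio with NCD odour, 1 member was called. It was 2 by library totals without ribosomal RNA and with no filter beyond 1 count, 0 with the covariate, 0 with the replicate number as a block, 3 by DESeq2 in both forms, 6 at an adjusted p under 0.05, and 0 to 2 with 1 pool left out. With BFD odour 2 were called, and 0 with the covariate, 0 with only the groups compared (fewer libraries in the fit), 6 by DESeq2 in both forms, 7 at 0.05, and 2 to 4 with 1 pool left out, 4 of them without BFD replicate 1 or HFD replicate 2. With HFD odour 1 was called, and 0 by library totals, 0 with the replicate block, 2 with no replicate block in the sense of no pool term, 0 with only the groups compared, 2 by DESeq2 in both forms, 6 at 0.05, and 0 to 2 with 1 pool left out. In the inputs, the counts of 3, 4 and 2 with NCD, BFD and HFD odour became 0, 0 and 0 with the covariate, 1, 2 and 1 with the replicate block, 1, 2 and 0 with only the groups compared, 6, 9 and 6 at 0.05, and 1 to 4, 2 to 4 and 1 to 2 with 1 pool left out. The count of 6 without odour was 5 or 6 with 1 pool left out, 5 with DESeq2 size factors, no filter, the covariate or no pool term (Hspa5 lost), 4 with only the groups compared (Herpud1 lost too) and 7 by library totals or DESeq2. Over all genes, the replicate block called 53, 340 and 90 in the ratio and 72, 1475 and 38 in the inputs, where the main fits called 111, 801 and 258 and 205, 2767 and 198, and DESeq2 with the same designs called 560, 1824 and 868 and 1276, 4301 and 1209. On the divided values DESeq2 called 720, 2110 and 1115. The replicate number is not a stated batch. No comparison between odours changed its count of 0 members under any of these. Library totals in place of TMM moved the median of all genes by 0.21, 0.33 and 0.21 in the inputs and by -0.15, -0.23 and -0.13 in the ratio.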
